A study of Mus musculus with 3 samples.

Results

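Integrins of leukocytes were examined through 10 genes chosen by name, Itgal, Itgam, Itgax, Itga4, Itga5, Itgav, Itgb1, Itgb2, Itgb3 and Itgb5, out of 55536 annotated mouse genes. All 10 symbols were found in the transcript tables and joined by gene identifier to the gene tables. The rule uses symbols and no measured value, but the genes were chosen when earlier results of these data were known. The samples were bone-marrow-derived macrophages of C57BL/6J mice, primary phagocytes grown from marrow precursors, given lipid A at 100 ng/ml for 30 min. Lipid A is the part of bacterial endotoxin that activates Toll-like receptor signalling. The RNA came from the chromatin fraction of the cells, was depleted of ribosomal RNA and was sequenced as total RNA, so that nascent and unspliced transcripts were kept. There was 1 group of 3 libraries. The labels number them as biological replicates under a common donor record and do not say if the mice were separate, so the spread may be partly technical. The starting RNA was 1 µg for library 1, 250 ng for library 2 and 500 ng for library 3, and its amount cannot be told apart from the other ways in which the replicates differ. No untreated sample was analysed here, so levels are given and not a response to lipid A. Age and sex of the mice were not collected, according to the labels.

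An integrin is a pair of membrane proteins, an alpha and a beta subunit, that binds matrix or counter-receptors outside the cell and is coupled through talin and kindlin to the actin skeleton inside. The beta-2 integrins are made of the common chain encoded by Itgb2 with an alpha chain, among them those of Itgal, Itgam and Itgax. They occur on leukocytes and serve adhesion to ICAM proteins and uptake of complement-coated particles. The chains of Itga4, Itga5 and Itgav bind fibronectin, VCAM1 or vitronectin, mostly together with the product of Itgb1, and the chain of Itgav also pairs with those of Itgb3 and Itgb5.

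Levels are given in TPM, which corrects reads for transcript length and scales every library to the same total, and counts are expected counts, the reads the authors' first quantification assigned to a gene. The libraries held between 16205704 and 17033725 expected counts on annotated genes, and the 10 integrin genes took 0.155% ± 0.031 (SD, n = 3) of them. A count of 0 allowed up to 0.19 CPM, normalised counts without length correction, at 95% confidence, for counting error only. All 10 genes reached a mean expected count of at least 10, as did 49.9% of annotated protein-coding genes. TPM of most genes was higher in library 3: the median deviation of 10983 detected protein-coding genes from their own mean in log2 TPM was -0.39, -0.10 and 0.49 in libraries 1 to 3. Of a list of 10 macrophage markers, 10 were detected, with summed levels of 720, 805 and 1128 TPM in libraries 1 to 3, led by Csf1r, the receptor of the macrophage growth factor, at 202 ± 46.5 TPM. In a bulk fraction, fewer cells of a type and less RNA per cell cannot be told apart.

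The median level of the 10 genes was 4.45 ± 0.28 on the log2(TPM + 0.1) scale, against 2.28 ± 0.49 for all detected protein-coding genes. In TPM those medians were 23.1 ± 5.03 and 4.94 ± 1.75. The genes spanned a wide range, and in order of mean TPM they were Itga5, Itga4, Itgav, Itgb1, Itgb2, Itgam, Itgb5, Itgb3, Itgal and Itgax. Along this order the library values overlapped between Itga5 and Itga4, between Itga4 and Itgav, between Itgb1 and Itgb2, and among Itgb3, Itgal and Itgax, so the raw ranges do not separate these neighbours. Compared within libraries, Itgb1 exceeded Itgb2 by 0.26 ± 0.14 and Itga4 exceeded Itgav by 1.02 ± 0.62 on the log2 scale, each in 3 of 3 libraries. Itga5 exceeded Itga4 by 0.45 ± 0.80, Itgb3 exceeded Itgal by 0.35 ± 0.94 and Itgal exceeded Itgax by 0.17 ± 0.33, each in 2 of 3 libraries and by less than its SD. They did not overlap between Itgav and Itgb1, Itgb2 and Itgam, Itgam and Itgb5, or Itgb5 and Itgb3. A mean of at least 100 TPM was reached by 2 of 10 integrin genes, Itga5 and Itga4, and by 2.91% of detected protein-coding genes.

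**Figure D1:**
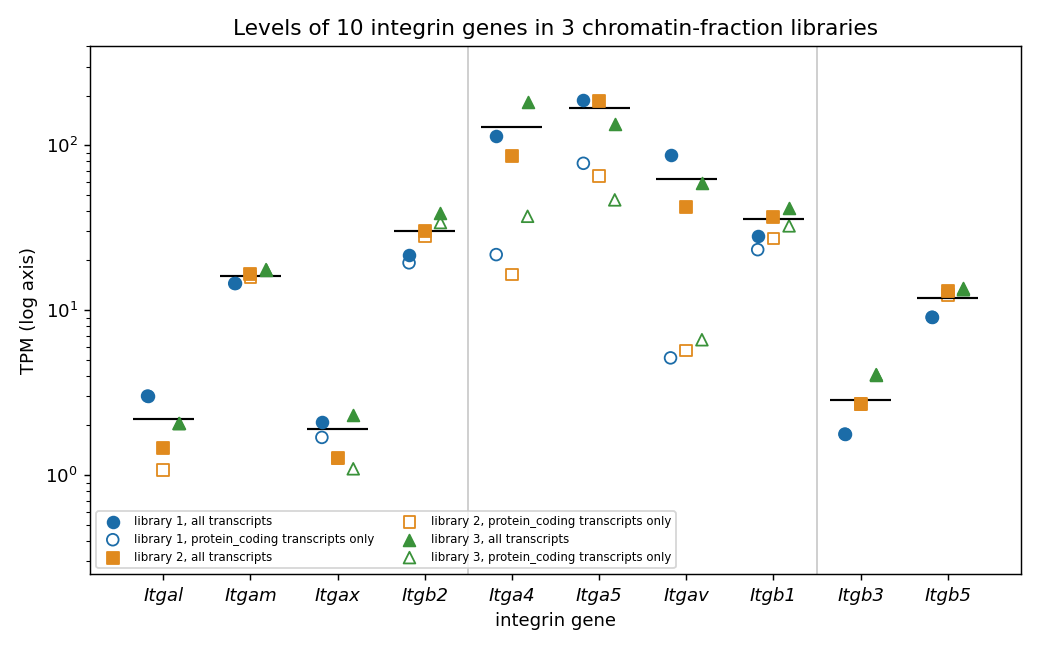
TPM on a log axis of the 10 integrin genes in each library (filled symbols) with the mean (line), and TPM summed over transcripts annotated protein_coding only (open symbols), grouped as beta-2 family, fibronectin and VCAM1 receptors, and partners of the Itgav chain. Open and filled symbols lie close together for Itgam, Itgb2, Itgb3 and Itgb5 and far apart for Itga4, Itga5 and Itgav, whose means were 128, 169 and 62.7 TPM over all transcripts.

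Much of the TPM of Itga4, Itgav and Itga5 lay in transcript models that do not encode the full chain. Itga5 was nonetheless the highest of the 10 over coding transcripts alone, and its noncoding models took 10.9% of its expected counts. GENCODE annotates, beside coding transcripts, models called retained_intron, processed_transcript and nonsense_mediated_decay, and these are called noncoding models here. At the places below, such models of the 3 genes run across a splice site of the main coding transcript and are not cut there. Unspliced RNA of the coding transcript, which these libraries kept, runs across the same places. Whether it added to the level of these models was not tested. The sequences show the bases that tell the models from the spliced transcript, but not from unspliced RNA. Each is read 5′ to 3′ from the GENCODE M21 transcript, on build mm10, with 20 exon bases in lower case and 25 intron bases in capitals. The introns are numbered along the main coding transcript, Itga4-201, Itgav-201 or Itga5-201.
Itga4-205, end of exon 1 into intron 1, chr2:79255837-79255881, plus strand: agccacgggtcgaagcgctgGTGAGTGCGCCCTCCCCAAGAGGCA
Itga4-205, into intron 2, chr2:79256280-79256324, plus strand: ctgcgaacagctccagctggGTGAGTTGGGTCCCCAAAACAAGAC
Itga4-204, into intron 4, chr2:79273103-79273147, plus strand: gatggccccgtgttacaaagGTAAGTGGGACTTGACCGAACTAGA
Itgav-208, into intron 3, chr2:83747925-83747969, plus strand: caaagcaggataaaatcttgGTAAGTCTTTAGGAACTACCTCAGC
Itgav-203, into intron 4, chr2:83755901-83755945, plus strand: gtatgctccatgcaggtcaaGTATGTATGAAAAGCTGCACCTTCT
Itga5-203, out of intron 6, chr15:103356422-103356466, minus strand: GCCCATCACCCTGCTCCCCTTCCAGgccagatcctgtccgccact
Itga5-204, out of intron 19, chr15:103351077-103351121, minus strand: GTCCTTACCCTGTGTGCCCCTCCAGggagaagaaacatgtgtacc
In each window the capitals begin with GT or end with AG, the bases that splicing normally recognises at the start and end of an intron. The models of Itga4 and Itgav shown here run on from an exon into the intron that follows it. Itga5-203 contains part of intron 6 and runs into the next exon, and Itga5-204 contains intron 19 whole.

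Itga4 (ENSMUSG00000027009.18, chromosome 2, 79255426 to 79333123, plus strand) encodes the alpha-4 chain, which binds VCAM1 and fibronectin. Its TPM was 114, 86.2 and 184 in libraries 1 to 3, a mean of 128 ± 50.3. Library 3 was the highest and library 2 the lowest. Of that level, 80.6% ± 0.7 lay in noncoding models, with 81.0%, 80.9% and 79.8% in the 3 libraries, so the share hardly varied while the level did. The gene has 5 models, and 4 of them are of the processed_transcript class.

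No single model of Itga4 held most of it. Itga4-203, with 16 exons ending 37.8 kb into a gene of 77.7 kb, held 29.1%, 33.6% and 14.5% of the gene's abundance in libraries 1 to 3, a mean of 25.8%. Itga4-205, the model of the first 2 windows above, ends 2.4 kb from the gene start and held 22.4% ± 3.9, and 76.1% of its 2314 nt are intronic in the coding transcript. The coding transcript Itga4-201, of 28 exons and 9767 nt, held 19.4% ± 0.7. Itga4-202 retains intron 13 whole and held 17.1% ± 2.8. Itga4-204, which runs into intron 4, held 15.4% ± 6.0. Over coding transcripts alone Itga4 stood at 21.7, 16.4 and 37.1 TPM, again lowest in library 2 and highest in library 3. Because TPM divides by length, the noncoding models took 45.5% ± 1.5 of the expected counts of Itga4, less than their share of TPM. Cerkl, on the opposite strand, shares 1124 nt of exon with Itga4-201 and had 46, 36 and 35 expected counts.

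Itgav (ENSMUSG00000027087.11, chromosome 2, 83724397 to 83806916, plus strand) encodes the alpha-v chain of the vitronectin receptors. Its TPM was 86.8, 42.4 and 59.0, highest in library 1, with a mean of 62.7 ± 22.5. Noncoding models held 94.1%, 86.6% and 88.8% of it, a mean of 89.8% ± 3.9, and 70.3% ± 10.1 of its expected counts. That share was higher than in any other of the 10 genes and stood at the 96.6 percentile of detected protein-coding genes. The main transcript was Itgav-209, a processed_transcript of 3 exons ending 16.3 kb into the gene of 82.5 kb, with 36.2% ± 3.6 of abundance. Itgav-208 and Itgav-203, the retained-intron models shown above, held 22.1% ± 3.1 and 19.2% ± 4.7, and Itgav-207, which ends 1.4 kb from the start, held 12.3% ± 2.2. The full coding transcript Itgav-201, of 30 exons, held 9.0% ± 3.6.

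Coding transcripts of Itgav amounted to 5.13, 5.69 and 6.61 TPM in libraries 1 to 3. In TPM this order, lowest in library 1, differed from that of the whole gene, where library 1 was the highest. By expected counts the coding transcript Itgav-201 had 795, 847 and 650, lowest in library 3. Itgav shares its locus with genes on the opposite strand, and the strand setting of the counting is not given, so reads cannot be assigned with certainty. The antisense gene Gm13684 shares 634 nt of exon with Itgav-209 and had 1324, 427 and 441 expected counts, highest in library 1 as Itgav was. The pseudogene Dnmt3l-ps1, within an intron of Itgav, had 844, 279 and 298. The part of these overlapping genes in the level of Itgav was not tested.

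Itga5 (ENSMUSG00000000555.8, chromosome 15, 103344286 to 103366763, minus strand) encodes the alpha-5 chain of the classical fibronectin receptor. Its TPM was 187, 184 and 135, a mean of 169 ± 29.5, with library 3 the lowest although most genes were highest there. Noncoding models held 62.9% ± 3.8 of its TPM but 10.9% ± 0.9 of its expected counts, because both main ones are short. Itga5-204, a retained_intron model of 563 nt that keeps intron 19 whole, held 38.3% ± 3.9 of abundance with 670, 633 and 254 expected counts. Itga5-203, of 425 nt, held 24.5% ± 4.6 with 249, 191 and 126. The coding transcript Itga5-201, of 30 exons, held 37.1% ± 3.8 and 8660, 6589 and 3120 expected counts. Itga5 led the 10 genes by coding transcripts as well, at 77.7, 64.9 and 46.6 TPM, and these values did not overlap with those of the next gene, Itgb1. The microRNA gene Mir6963 lies within Itga5 and had 0 expected counts in each library, but 254 TPM as a mean in the authors' second quantification, so reads there were assigned differently by the 2 methods.

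**Figure D2:**
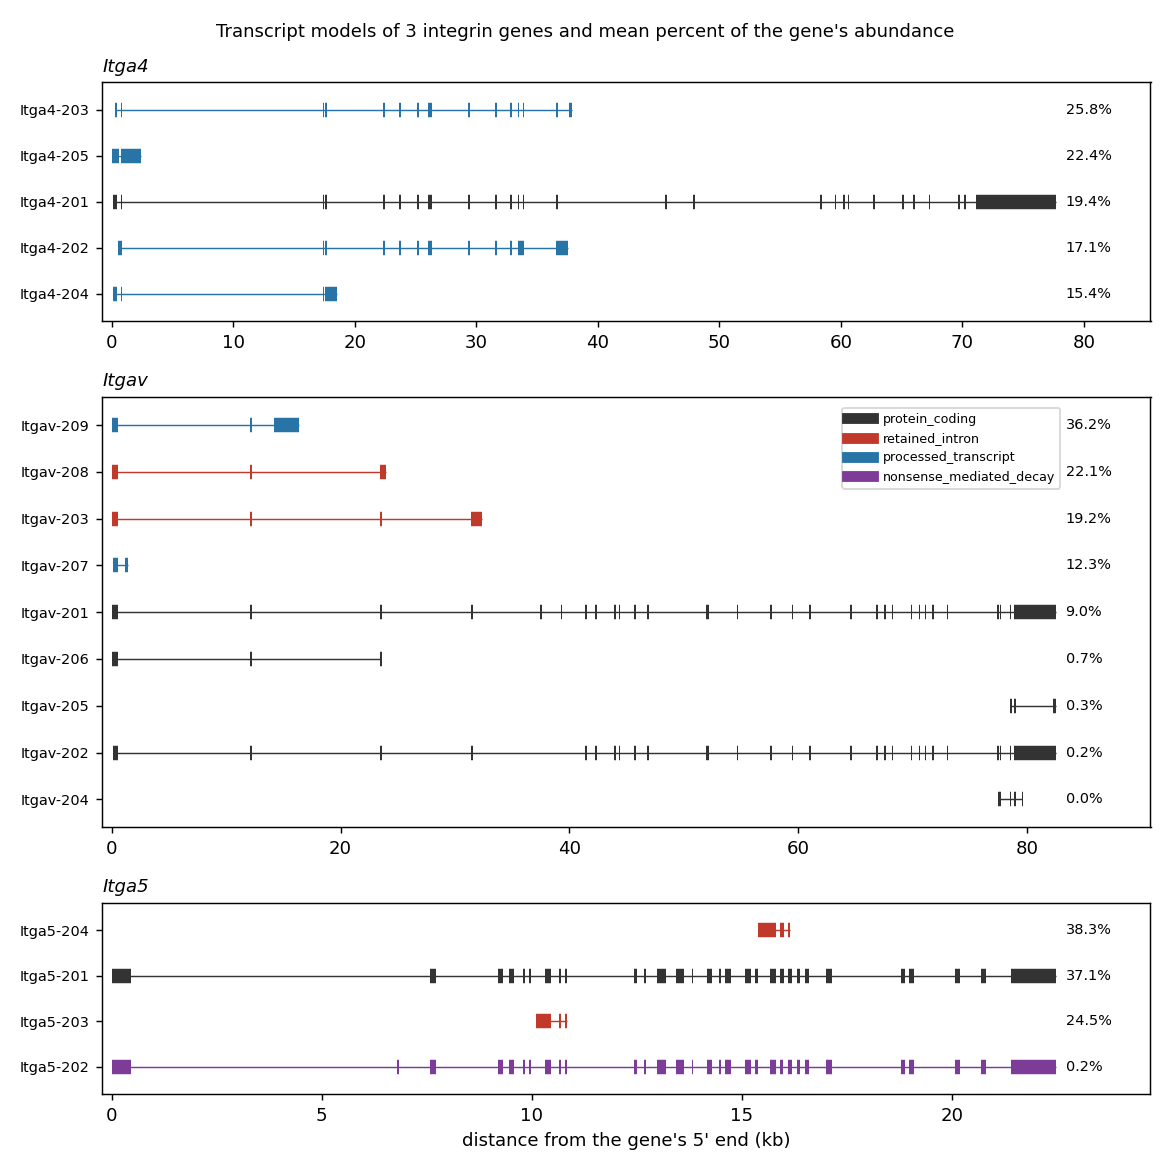
Transcript models of Itga4, Itgav and Itga5 drawn to scale by distance in kb from the gene's 5′ end, with exons as blocks coloured by annotated class and the mean percent of the gene's abundance over 3 libraries at the right. The noncoding models of Itga4 and the 4 most abundant models of Itgav end in the first 50% of the gene's length, while Itga5-203 and Itga5-204 are short internal stretches. Itga5-202 spans its whole gene and held 0.2%.

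The noncoding models of Itga4 and Itgav ended within the first 50% of the gene's length. The farthest reached 37.8 kb of 77.7 kb in Itga4 and 32.4 kb of 82.5 kb in Itgav. After the values had been seen, the share of each gene's TPM in models lying wholly within the first 50% of its length was counted. It was 90.5% ± 4.0 for Itgav and 80.6% ± 0.7 for Itga4, followed by 39.5% ± 25.4 for Itgax and 24.5% ± 4.6 for Itga5, and at most 8.7% for the other genes. For all detected protein-coding genes the median was 0.0%. At least 50% was reached by 2 of 10 integrin genes and by 6.59% of detected protein-coding genes. In the second quantification Itgav had 92.4% ± 1.5 and Itga4 82.7% ± 0.4, against 9.80% of genes reaching 50%. The measure depends on the annotation. Itgb1, Itgb3 and Itgb5 have 0 models within the first 50%, so their share could only be 0.0%. The median and percents over all genes include such genes. All 4 noncoding models of Itga4 lie there, so its share repeats its noncoding share. The 4 noncoding models of Itgav lie there too, with the coding model Itgav-206 at 0.7% of abundance. The share of Itgav therefore nearly repeats its noncoding share of 89.8%.

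Itgb1 (ENSMUSG00000025809.15, chromosome 8, 128685654 to 128733200, plus strand) encodes the beta-1 chain, the partner of alpha-4 and alpha-5 and one partner of alpha-v. Its TPM was 28.1, 36.8 and 41.5, a mean of 35.5 ± 6.77, lowest in library 1. In CPM it was 141, 152 and 122, lowest in library 3. The coding transcript Itgb1-201 held 78.2% ± 4.5 of abundance, and the retained_intron model Itgb1-203 held 19.2% ± 1.8. Itgb1 was below the sum of Itga4, Itga5 and Itgav in 3 of 3 libraries, with differences of -3.78, -3.08 and -3.18 in log2(TPM + 0.1). The mean difference was -3.35 ± 0.38, a 10.2-fold gap, and with coding transcripts only it shrank to -1.77 ± 0.35. The alpha genes summed to 388, 313 and 378 TPM, of which coding transcripts made 104, 87.0 and 90.3.

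This and 5 other differences between partner genes, 6 in all, were tested over libraries by exact permutation of signs, two-sided, for which 3 libraries allow no p below 0.25. Each of the 6 had an exact p = 0.25, also after Benjamini-Hochberg adjustment over the 6 and with the same sign in 3 of 3 libraries, so the test could not pass 0.05 and the values are read by their size and SD.

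Itgb2 (ENSMUSG00000000290.13, chromosome 10, 77530252 to 77565708, plus strand) encodes the beta-2 chain shared by the leukocyte-specific integrins. Its TPM was 21.6, 30.1 and 38.6, a mean of 30.1 ± 8.50, lowest in library 1 and highest in library 3. In CPM it was 87.7, 107 and 84.1, lowest in library 3. Coding transcripts held 90.1% ± 2.3 of it, and Itgb2-201 alone 77.2% ± 7.7. Nonsense_mediated_decay models held the other 9.9% ± 2.3. Itgb2 minus Itgb1 was -0.38, -0.29 and -0.10 on the log2 scale, a mean of -0.26 ± 0.14. Over coding transcripts alone the difference was -0.05 ± 0.18, and Itgb1 was the higher in only 1 of 3 libraries. In the second quantification the difference was -1.29 ± 0.05, so the size of this gap differed with the quantification.

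Itgam (ENSMUSG00000030786.18, chromosome 7, 128062640 to 128118491, plus strand) encodes the alpha-M chain, which with beta-2 forms the complement receptor Mac-1. Its TPM was 14.5, 16.4 and 17.6, a mean of 16.2 ± 1.57, with a coefficient of variation of 9.7% in TPM, the lowest of the 10 genes on that scale. In CPM it was 12.6%, above Itgb5 at 10.9% and Itgb1 at 11.0%. Coding transcripts held 99.0% ± 1.8, chiefly Itgam-203 with 56.5% ± 9.1 and Itgam-205 with 35.5% ± 17.4 of abundance. Gm49368, annotated protein-coding on the same strand, shares 3450 nt of exon with Itgam and had 28, 0 and 12 expected counts, so the split of reads between them is uncertain. Of 8 neutrophil markers, listed because neutrophils also carry Mac-1, 0 were detected. Their summed level was 0.53 to 1.84 TPM, with Ly6g at 0 in each library.

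Itgal (ENSMUSG00000030830.18, chromosome 7, 127296260 to 127335138, plus strand) encodes the alpha-L chain of LFA-1, the ICAM receptor best known from lymphocytes. Its TPM was 3.01, 1.45 and 2.06, a mean of 2.17 ± 0.79, highest in library 1. Coding transcripts held 91.3% ± 15.1, led by Itgal-204 with 47.2% ± 9.7, Itgal-202 with a mean of 28.3% and Itgal-201 with 13.8% ± 14.4. Of 10 markers of T and NK cells 0 were detected, with a summed level of 0.23 to 0.41 TPM and Cd3e, Cd3g and Trac at 0 in each library. The highest was Zap70 at 0.22 ± 0.05 TPM, and Cd3d stood at 0.01 ± 0.02. The second quantification gave Cd3d 14.1 ± 6.63 TPM, above Itgal in it, and Cd8a 2.43 ± 1.08, but Cd3e 0.04 ± 0.03 and Trac 0.13 ± 0.12. The part of such cells in the level of Itgal was not tested.

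Itgax (ENSMUSG00000030789.9, chromosome 7, 128129547 to 128150657, plus strand) encodes the alpha-X chain, a complement receptor chain widely used as a dendritic cell marker. It had the lowest mean of the 10, with 2.11, 1.26 and 2.32 TPM and a mean of 1.90 ± 0.56. Its transcript split rested on few reads. The retained_intron model Itgax-202 was given 19.8%, 0.0% and 52.7% of abundance from 2, 0 and 3 expected counts. The coding transcript Itgax-201 held 60.5% ± 25.3, and the short coding model Itgax-203 held 15.3% ± 5.0. Of 8 dendritic cell markers 3 were detected, Batf3, Zbtb46 and Clec9a, and the list summed to 2.08, 2.82 and 4.85 TPM. Flt3 stood at 0.03 ± 0.03 TPM, and the part of such cells in the level of Itgax was not tested.

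Itgam was therefore the main alpha chain of the beta-2 family by level. It exceeded Itgal by 2.23, 3.42 and 3.04 on the log2 scale, a mean of 2.89 ± 0.60 or 7.43-fold. It exceeded Itgax by 2.72, 3.60 and 2.87, a mean of 3.07 ± 0.47 or 8.38-fold. Itgb2 was higher than the sum of Itgal, Itgam and Itgax by 0.14, 0.65 and 0.81, a mean of 0.53 ± 0.35. This difference was small against the one between Itgb1 and the sum of Itga4, Itga5 and Itgav. It depended on length correction: in CPM it was -0.18 ± 0.30. In the second quantification it was 0.23 ± 0.29, positive on average but smaller than its SD.

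Itgb5 and Itgb3 encode further partners of the alpha-v chain. Itgb5 (ENSMUSG00000022817.15, chromosome 16, 33829665 to 33949338, plus strand), known from uptake of apoptotic cells, stood at 9.05, 13.0 and 13.6 TPM, a mean of 11.9 ± 2.48, lowest in library 1. In CPM Itgb5 was 41.1, 48.1 and 39.25, lowest in library 3. Its coding transcripts held 97.7% ± 2.3, with Itgb5-202 at 65.3% ± 10.8, Itgb5-207 at 18.8% ± 12.4 and Itgb5-201 at 13.6% ± 4.8 of abundance. Itgb3 (ENSMUSG00000020689.4, chromosome 11, 104608000 to 104670476, plus strand), known from platelets and osteoclasts, stood at 1.77, 2.70 and 4.06 TPM, a mean of 2.84 ± 1.15. All of it, 100.0%, was assigned to the coding transcript Itgb3-201. Itgb5 exceeded Itgb3 by 2.29, 2.22 and 1.72 on the log2 scale, a mean of 2.08 ± 0.31 or 4.22-fold. Without length correction this was 1.10 ± 0.27, and in the second quantification 3.28 ± 0.43.

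Some markers of other cells that carry these chains were detected. Pf4, Gp9 and Atp6v0d2 had higher means than Itgb3, which stood at 2.84 ± 1.15 TPM. Of 8 megakaryocyte and platelet markers 4 were detected: Pf4 at 9.54 ± 4.56, Gp9 at 4.42 ± 2.41, Itga2b at 1.93 ± 0.10 and Gp1ba at 1.81 ± 1.19 TPM. The list summed to 10.8, 18.4 and 24.4 TPM in libraries 1 to 3. This order was that of Itgb3, but also that of the median of all detected protein-coding genes. Ppbp, which belongs to that list, stood at 0.05 ± 0.08 TPM. Of 7 osteoclast markers 3 were detected, with sums of 14.0, 18.0 and 26.9 TPM, of which Atp6v0d2 made 17.8 ± 6.25, and Calcr and Ocstamp were at 0. In the second quantification Calcr was again at 0.00 and Ocstamp at 5.59 ± 2.96 TPM. Of 7 fibroblast markers 3 were detected, at 0.05, 1.14 and 0.95 TPM in sum, lowest in library 1 as were Itgb5 and the median of all detected protein-coding genes. Of 6 endothelial markers 2 were detected, at 1.53 to 2.54 TPM in sum. The part of such cells in the levels of Itgb3, Itgb5 and Itgav was not tested.

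The share of noncoding models set Itga4, Itga5 and Itgav apart from the rest of the 10 genes. The main transcript was noncoding in these 3 of 10, while this was so for 29.3% of detected protein-coding genes, a share near that of the integrins. For Itga5 this call was close: Itga5-204 led Itga5-201 by 38.3% to 37.1%, the coding transcript led in library 1 with 41.5% to 36.7%, and without library 2 the count was 2 of 10. The same 3 had at least 50% of TPM in noncoding models, beside 35.4% of detected protein-coding genes, among which the median share was 36.6%. Itga4 stood at the 92.6 and Itga5 at the 78.5 percentile of that share. The other 7 genes were at or below the 38.1 percentile, with means from 0.0% for Itgb3 to 24.3% for Itgax.

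The second quantification gave Itga4, Itga5 and Itgav similar or higher shares, 82.7% ± 0.4, 75.4% ± 4.0 and 91.9% ± 1.6. It moved other genes upwards: Itgb1 from 21.8% ± 4.5 to 59.9% ± 5.6, Itgb5 from 2.3% ± 2.3 to 55.0% ± 6.4 and Itgax from 24.3% ± 26.8 to 51.2% ± 14.9. In it 5 of 10 genes had a noncoding main transcript, with 42.9% of detected protein-coding genes, and 6 of 10 had at least 50% in noncoding models, with 46.2% of genes. For Itgb5 the added level lay in short models such as Itgb5-205, of 364 nt, which had a mean of 5.46 ± 1.51 TPM there and 0 expected counts in each library of the first.

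**Figure D3:**
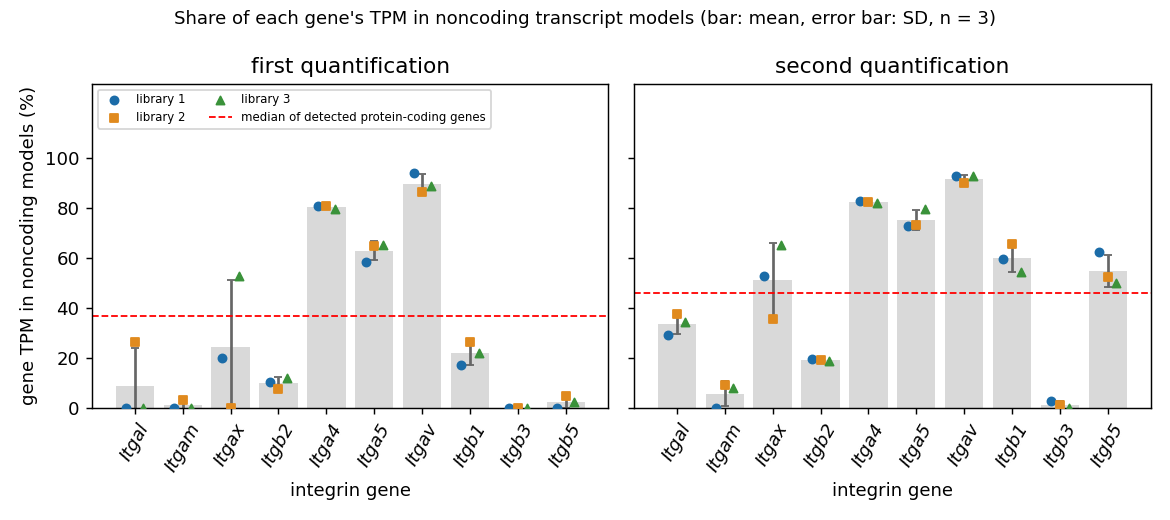
Percent of each gene's TPM in noncoding transcript models, by library (symbols) with mean (bar) and SD (error bar, n = 3), in the first and the second quantification, with the median of all detected protein-coding genes as a dashed line at 36.6% and 46.2%. Itga4, Itga5 and Itgav are above the line in both, and Itgb1, Itgb5 and Itgax are above it by their means in the second only.

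Counting coding transcripts alone changed the order of the genes. It became Itga5 at 63.1 ± 15.6 TPM, Itgb1 at 27.6 ± 4.60, Itgb2 at 27.1 ± 7.34, Itga4 at 25.1 ± 10.7, Itgam at 16.0 ± 1.55, Itgb5 at 11.6 ± 2.23, Itgav at 5.81 ± 0.75, Itgb3 at 2.84 ± 1.15, Itgal at 2.04 ± 0.97 and Itgax at 1.35 ± 0.31. Itgb1, Itgb2 and Itga4 overlapped in this order, as did Itga4 and Itgam. Itgav fell from the third to the seventh place, below Itgam and Itgb5 in 3 of 3 libraries. In the second quantification, over all transcripts, Itga5 had 358 ± 90.3 TPM, Itga4 157 ± 61.7, Itgav 112 ± 52.3, Itgb1 81.5 ± 14.4, Itgb2 33.2 ± 5.19, Itgb5 29.5 ± 3.50, Itgam 19.3 ± 1.73, Itgal 5.24 ± 3.00, Itgax 3.81 ± 1.44 and Itgb3 3.05 ± 1.10. The means of Itgb5, Itgal, Itgb1, Itga5, Itgax and Itgav were 2.48, 2.41, 2.30, 2.12, 2.01 and 1.79 times those of the first quantification, and those of the other 4 genes 1.07 to 1.23 times.

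The 10 genes held most of the integrin subunit RNA measured. Of the summed TPM of 18 alpha subunit genes they held 92.6% ± 1.7, Itga5 alone 41.7% ± 9.9, Itga4 30.9% ± 10.1 and Itgav 15.1% ± 4.4. Of 8 beta subunit genes they held 99.1% ± 0.4, with Itgb1 at 44.1% ± 2.2, Itgb2 at 36.9% ± 1.8, Itgb5 at 14.7% ± 0.9 and Itgb3 at 3.4% ± 0.6. The beta shares varied little between libraries but did change with the quantification. In the second, Itgb1 held 53.9% ± 0.6, Itgb2 22.0% ± 0.8, Itgb5 19.7% ± 2.3 and Itgb3 2.0% ± 0.4. Over coding transcripts alone the share of Itgav among alpha genes was 4.6% ± 0.7 and that of Itgam 12.6% ± 1.7.

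Among the other 12 alpha genes 7 were detected, led by Itga6, a laminin receptor chain, at 15.4 ± 4.78 TPM and Itga9 at 10.3 ± 1.55. Itga2b, the platelet partner of the Itgb3 chain, stood at 1.93 ± 0.10 and Itga10 at 0.89 ± 0.29. Itga3 had 0 counts in each library and Itga7 was not detected. In the second quantification Itga7 stood at 5.57 ± 1.98 TPM and Itga3 at 0.0 ± 0.01. Among the other 4 beta genes Itgb7, an alternative partner of alpha-4, was the only one detected, at 0.70 ± 0.54 TPM. Itgb4, Itgb6 and Itgb8 were below the limit. In the second quantification Itgb6 stood at 2.51 ± 1.56 TPM, Itgb4 at 0.26 ± 0.18 and Itgb8 at 0.03.

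Of 19 ligand and counter-receptor genes 9 were detected, a share near the 49.9% of all annotated protein-coding genes. Icam1, the ligand of the beta-2 integrins, was the highest at 398, 178 and 472 TPM, a mean of 350 ± 153, lowest in library 2. Spp1, which encodes osteopontin, stood at 166 ± 69.9 TPM, Tgfb1, whose latent form is bound by alpha-v integrins, at 83.0 ± 12.8, and Thbs1, which encodes thrombospondin, at 84.3 ± 50.4. Thbs1 was lowest in library 1, with 26.9 TPM against 121 and 105. F11r and Fga were not detected. Fn1, which encodes fibronectin, stood at 0.34 ± 0.33 TPM, and Vtn, which encodes vitronectin, was not detected at 0.02 ± 0.03. These were named after their values were seen.

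Genes listed as acting on integrins or carrying their signal were mostly detected, and not all of those listed switch integrins on. Of 26 genes listed as activators and adaptors 22 passed the detection limit, beside 49.9% of annotated protein-coding genes. The highest was Flna, an actin crosslinker that binds beta chains, at 249 ± 129 TPM, followed by Cyth1 at 110 ± 26.4. Tln1, which encodes talin, stood at 106 ± 31.3 and Fermt3, the kindlin of blood cells, at 84.3 ± 25.4. The kindlins of other tissues, Fermt1 and Fermt2, were not detected in the first quantification. Of 9 kinases and exchange factors downstream of integrins 8 were detected, beside the same 49.9%. They were led by Syk at 253 ± 38.6 TPM, Lyn at 74.6 ± 15.4, Vav3 at 73.8 ± 9.97 and Vav1 at 58.2 ± 11.4. Fgr was not detected.

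Libraries did not rank the 10 genes alike. By TPM, 3 of 10 were highest in library 1, Itga5, Itgav and Itgal, as were 2.87% of detected protein-coding genes. In library 2, 0 of 10 were highest beside 9.63% of those genes, and in library 3, 7 of 10 beside 87.5%. By CPM over the library total, 6 of 10 were highest in library 1 beside 17.0% of genes, 3 in library 2 beside 30.9% and 1 in library 3 beside 52.1%. That 1 gene was Itgb3. With the library scaling factors (TMM) of the spread test, Itgb3 was highest in library 2, with log2 CPM of 4.1, 4.47 and 4.38. Itga5, Itgav and Itgal were highest in library 1 on each of these scales.

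The spread was tested by edgeR's quasi-likelihood fit across 13309 genes, asking whether a gene varied more between the libraries than genes of its abundance do. With Benjamini-Hochberg adjustment 0 genes passed 0.05, and 655, or 4.92%, had an unadjusted p under 0.05. Of the integrins 3 were among the latter. Itgal had log2 CPM, with TMM scaling, of 4.58, 2.90 and 3.13 (edgeR adjusted p = 0.773). Itga5 had 9.28, 8.81 and 7.65 (edgeR adjusted p = 0.822), and Itgav had 8.15, 7.08 and 6.91 (edgeR adjusted p = 0.865). Library 1 was the highest in each. Library 3 was the lowest for Itga5 and Itgav, and library 2 for Itgal.

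The widths of these ranges were 3.20-fold for Itgal, 3.09-fold for Itga5 and 2.35-fold for Itgav. Itgax had 3.21, 2.69 and 1.74, a 2.76-fold range on far fewer reads (edgeR adjusted p = 0.992). The other 6 genes had ranges from 1.30-fold for Itgb3 to 1.59-fold for Itga4, beside a median range of 0.51 in log2 over tested genes. Library 1 set the spread of Itgal and Itgav: without it their unadjusted edgeR p was 0.694 and 0.666, while that of Itga5 was 0.0187. With all libraries the unadjusted edgeR p was 0.00731 for Itgal, 0.0146 for Itgav and 0.0111 for Itga5. After adjustment, the edgeR p without library 1 was 0.99 for Itgal and Itgav and 0.871 for Itga5, so none of them was called. Library 1 was also the one made from the most RNA. Its marker sums in TPM were the lowest for macrophages, dendritic cells, platelets, osteoclasts, fibroblasts and endothelial cells. The median of all detected protein-coding genes was lowest there too. Marker sums of T and NK cells, B cells and neutrophils were lowest in library 2. The part of the RNA amount or of such cells in the spread was not tested.

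**Figure D4:**
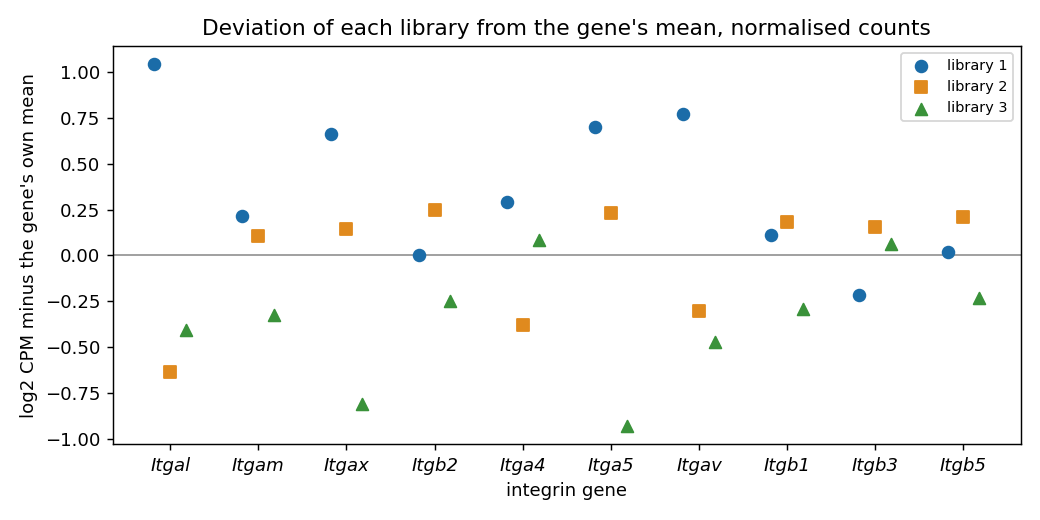
Log2 CPM, with TMM scaling, of each integrin gene minus the gene's own mean, by library. Itgal, Itgax, Itga5 and Itgav spread over more than 1 log2 unit with library 1 at the top, while the other genes stay within 0.67.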

How the data were processed

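Chromatin-fraction total RNA was measured in 3 libraries of 1 group. For each library the authors deposited a gene table and a transcript table holding expected counts, TPM and posterior mean TPM, per the file headers. The transcript table also gives each transcript's percent of its gene, per the file headers. The authors deposited a further transcript table with estimated counts and TPM from a second quantification. Build mm10 and GENCODE M21 are named in the deposited notes. Of tools, versions and strand, nothing is given in the sources used here. All 55536 gene identifiers matched GENCODE M21. Entries that are not mouse genes were kept out of totals. The 10 genes and all lists were chosen with earlier results of these data known.

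Named were the 10 genes, in each further list the 4 genes highest by mean TPM and at most 2 undetected ones, every gene overlapping a member, and transcripts with at least 10% of a gene's abundance. Of the cell type markers, those named at or near 0 outside this rule, among them Cd3e, Cd3g, Trac, Ly6g, Flt3, Ppbp and Ocstamp, were chosen after their values were seen. Detection meant a mean expected count of at least 10. CPM of single genes per library, and the counts of genes highest in a library, used the library total. The spread test, its figure, and the differences and median in CPM used TMM scaling. Levels are log2(TPM + 0.1) where a difference or median is given, so differences of low genes are understated. The test of spread used rounded expected counts with edgeR 4.0.16 (R 4.3.3, TMM, filterByExpr, intercept only, Benjamini-Hochberg at 0.05). On simulated counts for 13309 genes it called 32 of 100 genes changed 4-fold in 1 library, 97 of 100 changed 8-fold and 0 of 13109 unchanged. The simulation gave each gene exactly the variability fitted for its abundance, while real genes may differ in theirs. These rates may therefore be too high for the real counts. Alternatives were other pseudocounts, the second quantification, posterior mean TPM, CPM, coding transcripts only, DESeq2 1.42.0 size factors, no filter, robust empirical Bayes and leaving out each library. Other steps ran in Python 3.11.15 with pandas 2.3.3 and matplotlib 3.10.9. Coordinates come from GENCODE M21 on mm10. Values of some marker genes are not reported here.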

Additional observations from a re-analysis of the deposited data

How the results depend on the processing

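Of 54 recomputed differences between partner genes 53 kept the sign of their mean. Over coding transcripts Itgb1 exceeded Itgb2 on average but in only 1 of 3 libraries. Itgb2 against the sum of Itgal, Itgam and Itgax was -0.18 in CPM without length correction, against 0.53, a setting that favours long transcripts. The median log2 level of the 10 genes, 4.45, became 4.96 in the second quantification, 6.49 in CPM, 6.85 with TPM rescaled over protein-coding genes and 3.77 over coding transcripts only, a setting added after seeing the data. The number of genes with a noncoding main transcript rose from 3 to 5 in the second quantification, and the cause was not tested. It was 2 without library 2. The spread test called 0 genes, but 117 without a filter on low counts and between 0 and 49 with 1 library left out, 49 of them without library 2. None of the 10 genes was among these calls, the lowest adjusted p being 0.0794 for Itgal without the filter. Leaving out 1 library moved no mean TPM of the 10 genes by over 1.5 times, but the second quantification raised those of Itgb5, Itgal, Itgb1, Itga5, Itgax and Itgav by 1.79 to 2.48 times. No paired analysis was possible because there was 1 group. Noncoding models of Itgal and Itgax rest on 0 to 3 reads per library and those of Itgam on 0 to 2, so their shares are imprecise.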
